A study of Homo sapiens with 18 samples.

Results

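The genes described here are 38 listed genes of DNA double-strand break repair, the Fanconi pathway, mismatch repair and the damage checkpoint. They were followed in HK-2 cells on Affymetrix HG-U133 Plus 2.0 arrays. HK-2 is an established, immortalized line from the epithelium of human kidney proximal tubules. The members were taken by gene symbol, and each was represented by its probe set with 1 gene and the highest mean over the 18 arrays. BRCA2, FANCA and FANCD2 had no such probe set in the table used, so 35 of the 38 members were measured, of 19775 genes with a 1-gene probe set. All 35 passed the filter on low signal and were among the 10832 genes tested. Of them, 34 were above a log2 value of 4 on all 18 arrays, and FANCB was above it on 16.

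Each of the 6 groups held 3 biological replicates: cells in medium alone, cells with DMSO and cells with ethanol, each for 24 h and 48 h. They are the control cultures of a wider screen of compounds toxic to the kidney, in which DMSO and ethanol were vehicles. Vehicle doses were not stated in the material used. The shorter time is 24 h on every sample label and 12 h in the series description, and the sample labels were followed. All groups shared one growth medium with EGF, hydrocortisone, insulin, transferrin and selenium, and treatment began near confluence.

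Cells repair double-strand breaks by homologous recombination, which copies an intact sister chromatid, or by end joining, which ligates the ends directly. The Fanconi pathway removes crosslinks between DNA strands and hands the broken fork to homologous recombination, while mismatch repair corrects copying errors. Many genes of homologous recombination and the Fanconi pathway are known to be transcribed mostly in cycling cells, around S phase, whereas end joining is available throughout the cell cycle.

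Promoter sequence is shown for 4 members whose values are given in detail: BARD1, BRIP1 and XRCC6, which were lower with ethanol at 48 h, and RAD50, which was higher. Each sequence is the 250 bases before the RefSeq transcription start on GRCh38.p14, written 5′ to 3′ on the gene's strand and ending at the base before the start. BARD1 lies at chr2:214809684-214809933 (minus strand), BRIP1 at chr17:61863529-61863778 (minus strand), XRCC6 at chr22:41621045-41621294 (plus strand) and RAD50 at chr5:132556727-132556976 (plus strand). Capitals mark matches to any of 3 motifs linked to cell cycle genes, searched on both strands: the E2F-type letters TTTCGCGC, TTTGGCGC and TTTCCCGC, the CCAAT box, and the CHR letters TTTGAA.
BARD1: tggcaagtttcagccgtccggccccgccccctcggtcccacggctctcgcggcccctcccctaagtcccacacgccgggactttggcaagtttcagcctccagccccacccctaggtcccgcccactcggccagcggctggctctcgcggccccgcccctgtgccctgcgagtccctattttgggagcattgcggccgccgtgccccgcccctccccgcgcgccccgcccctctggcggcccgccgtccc
BRIP1: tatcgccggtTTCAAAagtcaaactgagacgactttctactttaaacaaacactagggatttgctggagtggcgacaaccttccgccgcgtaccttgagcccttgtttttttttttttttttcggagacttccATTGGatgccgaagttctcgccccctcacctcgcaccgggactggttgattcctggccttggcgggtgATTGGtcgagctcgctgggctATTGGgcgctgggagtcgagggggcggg
XRCC6: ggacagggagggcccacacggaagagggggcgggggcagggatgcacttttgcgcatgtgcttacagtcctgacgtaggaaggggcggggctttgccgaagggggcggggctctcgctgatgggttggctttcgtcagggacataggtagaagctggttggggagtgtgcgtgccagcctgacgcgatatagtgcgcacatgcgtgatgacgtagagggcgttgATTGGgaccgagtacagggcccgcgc
RAD50: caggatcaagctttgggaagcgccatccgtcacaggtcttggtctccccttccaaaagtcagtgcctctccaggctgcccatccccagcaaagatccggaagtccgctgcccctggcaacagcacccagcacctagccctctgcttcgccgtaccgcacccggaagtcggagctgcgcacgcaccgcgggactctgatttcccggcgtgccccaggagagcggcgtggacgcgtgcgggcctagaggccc
The BRIP1 window held the CCAAT box read on the opposite strand (ATTGG) at 117 to 113, 49 to 45 and 28 to 24 bases before the start, and the CHR letters on the opposite strand (TTCAAA) at 240 to 235. The XRCC6 window held ATTGG at 26 to 22 bases before the start. The BARD1 and RAD50 windows held none of these letters.

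Windows were in the RefSeq table for 29 of the 35 measured members. FANCI, XRCC5, RAD54B, WRN, PRKDC and NBN are named only. The CCAAT letters were in 13 of the 29 windows (44.8%), against 33.0% of 27305 promoters of the same length. The E2F-type letters were in 2 windows, FANCC and MSH3, against 2.38% of all promoters. The CHR letters were in 3 windows, FANCC, BRIP1 and ATM, against 13.6%. Among the 14 members with a window that fell between 24 h and 48 h in ethanol (given with the time course), 9 held the CCAAT letters (64.3%), and among the other 15 members 4 did (26.7%). The E2F-type letters were in 0 of the 14 and 2 of the 15, and the CHR letters in 1 and 2. These matches are descriptions of the letters in the windows.

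The arrays had alike signal, with medians of 2.86 to 2.95 and 39.7% to 40.3% of probe sets above a log2 value of 4. The epithelial markers KRT8, KRT18, KRT19, KRT7 and EPCAM and the tubule factor PAX8 were above 4 on every array, and CDH1, the other epithelial marker, ranged from 2.58 to 9.04. The proximal tubule markers LRP2, CUBN, SLC34A1, GGT1, ANPEP, MME, AQP1, ALPL and SLC22A6 were not above 4 on any array, and neither were the endothelial markers or the 3 measured leukocyte markers. Of 6 fibroblast markers, COL1A1, DCN and LUM were above 4 on all arrays, COL1A2 and PDGFRB on none, and COL3A1 ranged from 2.71 to 4.06. Both arrays of ethanol replicate 3 stood apart on the second principal component (30.7% of the variance), with scores of -52.3 at 24 h and -61.6 at 48 h against -21.2 to 20.5 for the other 16 arrays, so the counts with ethanol are also given without them. The members' median SD within a group was 0.295 in ethanol at 48 h and 0.145 to 0.181 in the other 5 groups. The replicates of ethanol at 48 h were thus the most spread.

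The comparison of ethanol with medium at 48 h asks whether this vehicle alone changes the repair genes. Of the 35 members, 8 fell and 1 rose with ethanol. The genes that fell were BARD1 of homologous recombination, FANCB, FANCI and BRIP1 of the Fanconi pathway, XRCC5, XRCC6 and PRKDC, which form the DNA-dependent protein kinase of end joining, and the checkpoint activator TOPBP1. RAD50, part of the MRE11 complex that senses breaks, rose. Falls ran from 0.40 for TOPBP1 to 1.31 for FANCB on the log2 scale. In these bulk cultures fewer cells that express a gene and less RNA per cell cannot be told apart.

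The 9 members called (limma, Benjamini-Hochberg adjusted p under 0.05) stand against 15.3% of all 10832 genes, 7.80% higher and 7.47% lower. An unadjusted p under 0.05 was found for 17 of the 35 members and 3286 of all genes. The median difference of the 35 members was -0.29, and 26 were below 0 (74.3%). Over all genes the median was -0.04, and 54.3% were below 0. The arrays of ethanol and medium did not overlap for 13 members that were lower and 3 that were higher, against 15.4% and 14.2% of all genes.

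**Figure D1:**
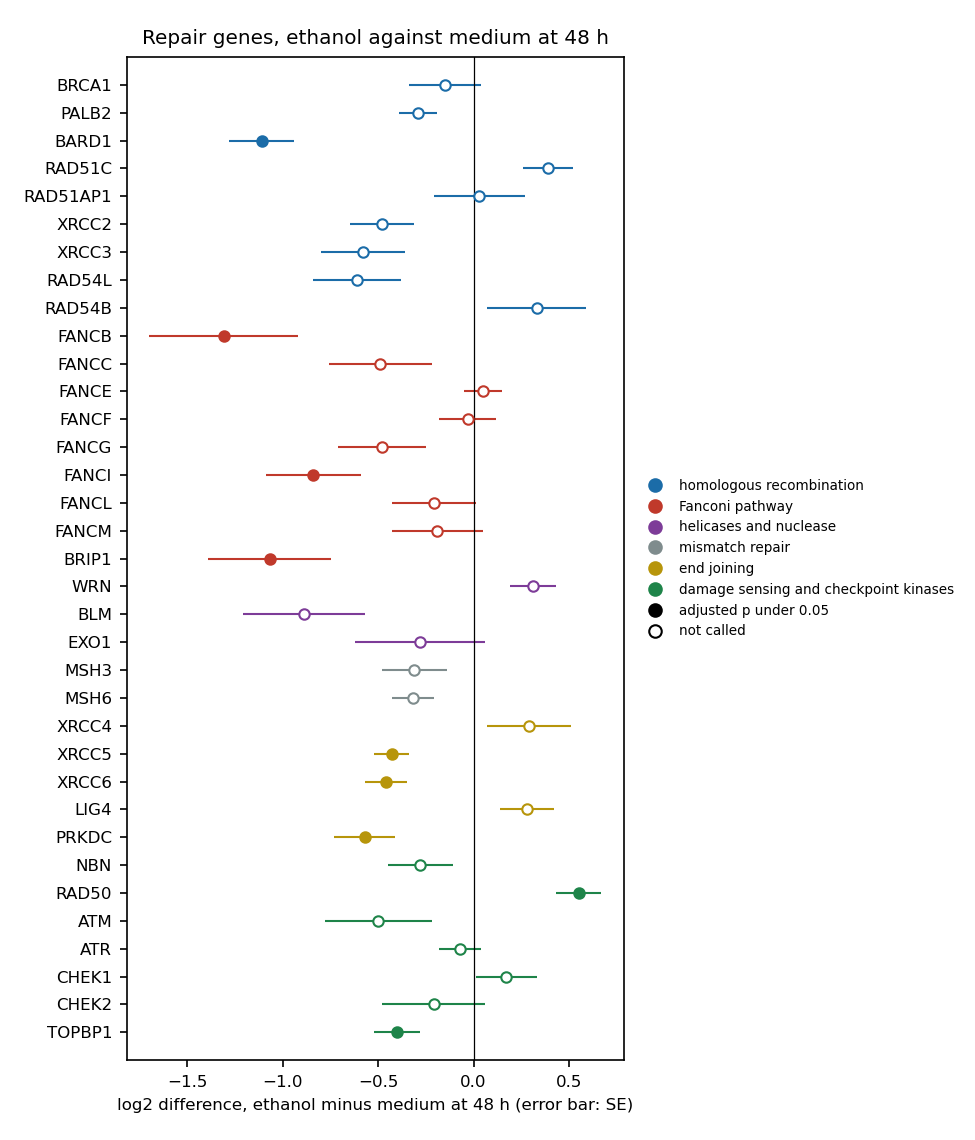
The log2 difference of ethanol minus medium at 48 h for each of the 35 measured members (horizontal axis; error bars are SE; 3 arrays per group), coloured by role, with filled points at an adjusted p under 0.05. Of 9 filled points, 8 lie left of 0, from TOPBP1 at -0.40 to FANCB at -1.31, and RAD50 lies right of 0 at 0.55.

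Among 9 measured genes of homologous recombination, BARD1 fell and the other 8 did not pass the test. BARD1, the partner that BRCA1 needs for its ubiquitin ligase activity, was at log2 values of 10.02, 10.31 and 10.10 in medium and 9.45, 8.69 and 8.98 in ethanol. All 3 ethanol arrays were below all medium arrays. The fall was 1.11 ± 0.17 (SE; 2.15-fold; adjusted p = 0.000924, limma), and the gene's other probe sets differed by -0.90 and -0.68. BRCA1 itself, which directs breaks to recombination, was at 8.76, 8.27 and 8.56 in medium and 8.65, 8.05 and 8.45 in ethanol. These ranges overlapped, and the difference was -0.15 ± 0.19, with a 95% interval of -0.55 to 0.26. The other BRCA1 probe set, of a type that may bind related transcripts, differed by -0.45.

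The other recombination genes differed in sign. PALB2, which bridges BRCA1 and BRCA2, differed by -0.29 ± 0.10 (adjusted p = 0.0553, limma), with 8.44, 8.56 and 8.39 in medium and 8.21, 8.15 and 8.18 in ethanol. RAD51C differed by 0.39 ± 0.13 (adjusted p = 0.0533, limma), with 8.72, 9.03 and 9.06 in medium and 9.43, 9.29 and 9.24 in ethanol. Both genes had no overlap between the groups, in opposite directions, and neither passed the test. The other RAD51C probe set that passed the filter differed by 0.04. XRCC2 and XRCC3 differed by -0.48 ± 0.17 and -0.58 ± 0.22. The DNA motor proteins RAD54L and RAD54B differed by -0.61 ± 0.23 and 0.33 ± 0.26, and RAD51AP1 by 0.03 ± 0.24.

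Of 9 measured Fanconi genes, 3 fell and none rose. BRIP1, a helicase that binds BRCA1, was at 8.46, 8.50 and 8.62 in medium and 8.09, 6.34 and 7.93 in ethanol. All ethanol arrays were lower, with replicate 2 far below the others. The fall was 1.07 ± 0.32 (2.10-fold; adjusted p = 0.0338, limma). FANCI, which is ubiquitinated together with FANCD2 at crosslinks, was at 9.52, 9.56 and 9.62 in medium and 9.09, 7.85 and 9.24 in ethanol. Again no array overlapped and replicate 2 was lowest. FANCI fell by 0.84 ± 0.25 (adjusted p = 0.0338, limma). FANCB, of the core ubiquitin ligase complex, was at 4.10, 4.94 and 5.12 in medium and 3.02, 3.08 and 4.12 in ethanol, so the highest ethanol array overlapped the lowest medium array. Its fall of 1.31 ± 0.39 (adjusted p = 0.0337, limma) ended at a mean of 3.41, near background, so its size is not exact. The other FANCB probe sets that passed the filter differed by -0.10 and -1.02.

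The remaining core complex genes did not pass. FANCG differed by -0.48 ± 0.23, FANCC by -0.49 ± 0.27, FANCL, its ubiquitin ligase subunit, by -0.21 ± 0.22, and FANCM, which anchors the complex on DNA, by -0.19 ± 0.24. FANCE and FANCF differed by 0.05 ± 0.10 and -0.03 ± 0.15. Their 95% intervals ran from -0.17 to 0.27 and from -0.35 to 0.30.

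No helicase or nuclease and no mismatch repair gene passed. BLM, the helicase that dissolves recombination intermediates, differed by -0.89 ± 0.32 (adjusted p = 0.0714, limma), at 6.36, 6.65 and 6.97 in medium and 6.20, 4.84 and 6.26 in ethanol. Its arrays did not overlap. EXO1, which resects DNA ends, differed by -0.28 ± 0.34. WRN, the helicase lost in Werner syndrome, differed by 0.31 ± 0.12 (adjusted p = 0.0825, limma). The mismatch sensors MSH6 and MSH3 differed by -0.32 ± 0.11 and -0.31 ± 0.17.

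In end joining, the 3 subunits of the DNA-dependent protein kinase fell and the ligation genes did not pass. XRCC5 (Ku80) was at 12.76, 13.02 and 12.91 in medium and 12.54, 12.41 and 12.43 in ethanol. XRCC6 (Ku70) was at 12.71, 12.87 and 13.01 in medium and 12.47, 12.25 and 12.49 in ethanol. For both Ku genes every ethanol array was below every medium array. XRCC5 fell by 0.43 ± 0.09 (adjusted p = 0.00745, limma) and XRCC6 by 0.46 ± 0.11 (adjusted p = 0.0117, limma). PRKDC, the catalytic subunit, was at 11.70, 11.86 and 11.85 in medium and 11.56, 10.86 and 11.28 in ethanol. These groups did not overlap either, and PRKDC fell by 0.57 ± 0.16 (adjusted p = 0.0232, limma). LIG4 and XRCC4, which seal the ends, differed by 0.28 ± 0.14 and 0.29 ± 0.22, above 0 where the kinase subunits were below it.

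Of the 7 sensing and checkpoint genes, 1 rose and 1 fell. RAD50 was at 9.66, 9.70 and 9.46 in medium and 10.12, 10.13 and 10.23 in ethanol, with a wide gap between the groups. It rose by 0.55 ± 0.12 (1.47-fold; adjusted p = 0.00681, limma). Its other probe sets differed by 0.66 and 0.02, so the rise was not on every probe set. TOPBP1, which activates ATR, was at 10.75, 10.91 and 10.72 in medium and 10.66, 10.40 and 10.13 in ethanol. It fell by 0.40 ± 0.12 (adjusted p = 0.0322, limma), with no overlap. The kinases did not pass: ATM differed by -0.50 ± 0.28, ATR by -0.07 ± 0.11, CHEK1 by 0.17 ± 0.16 and CHEK2 by -0.21 ± 0.27, and NBN, the partner of RAD50, by -0.28 ± 0.17. The other ATM probe sets that passed the filter differed by 0.15 and -0.14. Of the called genes' other probe sets, 12 passed the filter, covering 7 of the 9 genes, and all 12 had the direction of the chosen one, with sizes down to 0.02 for RAD50. Probe sets of FANCB and PRKDC that were not above 4 on any array differed by 0.01 each, and such a probe set of XRCC6 by 0.

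**Figure D2:**
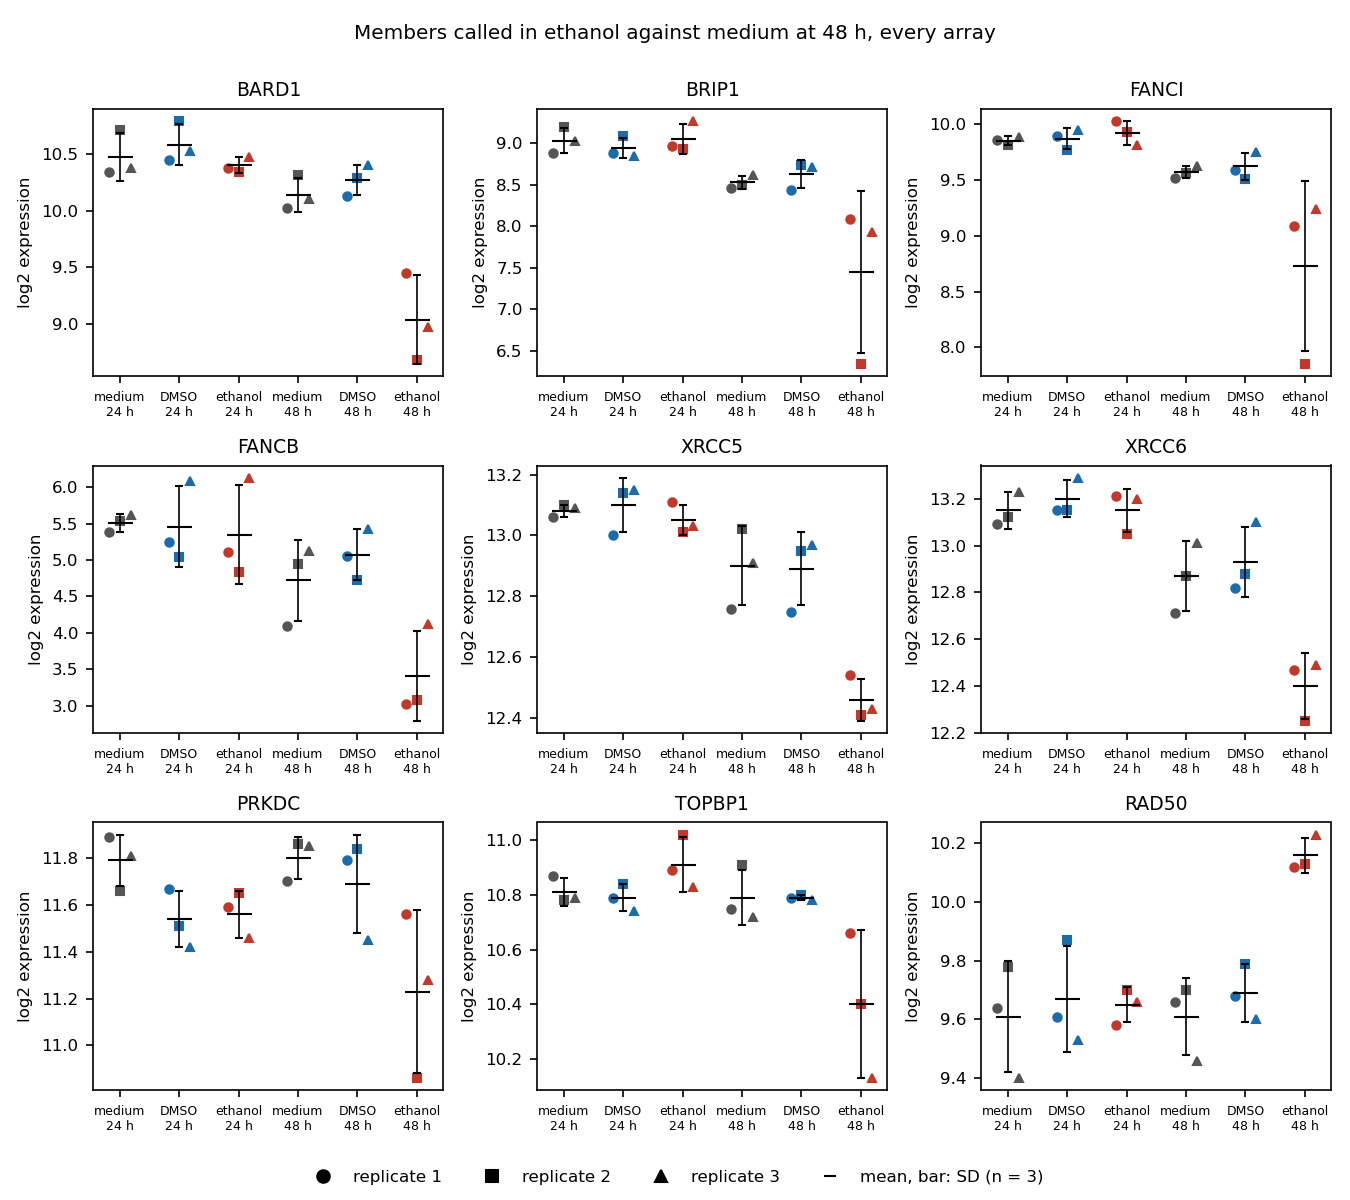
Log2 expression (vertical axis) of the 9 members called in ethanol against medium at 48 h, on each of the 18 arrays in 6 groups, with replicates as symbols and bars for mean and SD (n = 3). Ethanol at 48 h is the lowest group in 8 panels and the highest for RAD50, and replicate 2 of ethanol at 48 h is the lowest array in 6 panels (BARD1, BRIP1, FANCI, XRCC5, XRCC6 and PRKDC).

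How far the calls hold differed between genes. Without both arrays of ethanol replicate 3, 11 members passed, against 17.3% of all genes, with 8 of the 9 among them: TOPBP1 was lost, with a fall of 0.26 (adjusted p = 0.0918, limma), and BLM, RAD54L and XRCC3 were gained, at -1.14, -0.82 and -0.72. Leaving out 1 array left 4 to 10 members. The count was 4 without medium replicate 2, where 10.4% of all genes passed, and 4 without medium replicate 3, where 7.95% did. BARD1, XRCC5 and RAD50 passed whichever of the 6 arrays was left out, and XRCC6 in 5 of 6, failing without medium replicate 3. BRIP1 and FANCI passed in 3 of 6, failing without any 1 of the medium arrays, and PRKDC in 3, failing without medium replicate 2 or 3 or ethanol replicate 2. FANCB passed in 2, without medium replicate 1 or ethanol replicate 3, and TOPBP1 in 1, without ethanol replicate 1. In a fit of these 6 arrays alone, where the spread is estimated from fewer arrays, no member passed, against 1.05% of all genes called. BARD1 had an adjusted p of 0.0693 there (limma). An unadjusted p under 0.05 was found for 11 members, and all genes were not counted at that threshold.

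The proliferation markers moved with these falls. Of a list of 20 genes of replication and mitosis, 13 were called lower and none higher with ethanol at 48 h, with a median difference of -0.60, 20 of 20 below 0. Among them PLK1 was at -1.56 ± 0.30, MCM3 at -0.68 ± 0.11 and TYMS at -0.82 ± 0.18. The mean log2 level of the list was 9.79 to 10.53 on ethanol arrays and 10.85 to 11.11 on medium arrays at 48 h. The 3 of 6 fibroblast markers that passed the filter had a mean of 8.24 to 9.71 in ethanol and 9.73 to 9.91 in medium, with LUM called lower at -1.07 ± 0.26, DCN at -1.20 ± 0.48 and COL1A1 at -0.16 ± 0.23 not called. Their part in the result was not tested.

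Against DMSO at 48 h, which shares the ethanol arrays with the comparison above, 10 members passed, 1 higher and 9 lower, against 17.9% of all genes, 8.55% higher and 9.31% lower. RAD50 rose by 0.47. BARD1 fell by 1.23, FANCB by 1.66, BLM by 1.25, BRIP1 by 1.18, FANCI by 0.89, XRCC6 by 0.53, XRCC5 by 0.43, TOPBP1 by 0.39 and PALB2 by 0.29. PRKDC, at -0.46 ± 0.16 (adjusted p = 0.0536, limma), did not pass here. Neither did WRN, at -0.06 ± 0.12, or XRCC2, at 0.21 ± 0.17, which were at 0.31 and -0.48 against medium. Without both arrays of ethanol replicate 3 the count was 10, against 21.2% of all genes, with 8 of these 10 among them: TOPBP1 and PALB2 were lost, and EXO1, at -0.80, and XRCC3, at -0.72, were gained. PALB2 passed in none of 6 fits that left out 1 array and TOPBP1 in 1, while BARD1, FANCB, XRCC5 and XRCC6 passed in 6, BLM and RAD50 in 5, and BRIP1 and FANCI in 4. Without DMSO replicate 3 at 48 h the count was 5, against 10.1% of all genes. It was 0 in a fit of these 6 arrays alone (limma), against 1.61% of all genes called. There 12 members had an unadjusted p under 0.05, and all genes were not counted at that threshold.

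At 24 h no member passed for ethanol against medium (limma), against 0.0739% of all genes called. An unadjusted p under 0.05 was found for 4 of the 35 members and 965 of all 10832 genes. The members' median difference was 0.01, with a range from -0.49 to 0.44. The 4 were PALB2 at -0.35 ± 0.10, NBN at -0.49 ± 0.17, CHEK1, the kinase that ATR activates, at 0.44 ± 0.16 and ATR at -0.26 ± 0.11, with adjusted p from 0.231 to 0.523. The other NBN probe sets that passed the filter differed by less, at -0.06, -0.11 and -0.16. CHEK1 was at 9.36, 9.62 and 9.56 in medium and 10.00, 9.91 and 9.95 in ethanol, and PALB2 at 8.45, 8.71 and 8.54 in medium and 8.37, 8.15 and 8.13 in ethanol. Neither pair of groups overlapped. Over the members, 3 lower and 2 higher did not overlap, against 8.95% and 5.61% of all genes. Of the 9 members called at 48 h, PRKDC was at -0.22 ± 0.16 at 24 h, with no overlap, and FANCB at -0.16 ± 0.39. TOPBP1 was at 0.10 ± 0.12, BARD1 at -0.08 ± 0.17 and FANCI at 0.07 ± 0.25. XRCC5, RAD50, BRIP1 and XRCC6 were at -0.04 ± 0.09, 0.04 ± 0.12, 0.02 ± 0.32 and 0.01 ± 0.11. None of the 9 passed at 24 h. Against DMSO at 24 h, where the same ethanol arrays were used, no member passed either, against 0.619% of all genes called. There 2 members and 1394 of all genes had an unadjusted p under 0.05. Without both arrays of ethanol replicate 3, none passed at 24 h against medium or DMSO, with 4 and 4 at an unadjusted p under 0.05 (limma), and 1.33% and 2.51% of all genes were called. With the replicate number as a block, which pairs the arrays at 24 h, 3.26% of all genes were called against DMSO, and CHEK1 was higher by 0.67 ± 0.13 (adjusted p = 0.0224, limma) and PALB2 lower, at -0.39 ± 0.09 (adjusted p = 0.0379, limma).

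The comparison of 48 h with 24 h asks how the repair genes change with time in culture. In ethanol, 17 members fell and 1 rose between 24 h and 48 h, against 23.0% of all genes, 11.7% higher and 11.3% lower. The members' median difference was -0.45 with 29 of 35 below 0, and the median over all genes was -0.01. The arrays of the times did not overlap for 16 lower and 2 higher members, against 16.0% and 14.2% of all genes. By role, 5 of 9 recombination genes fell, 5 of 9 Fanconi genes, 2 of 3 helicases and nucleases, 1 of 2 mismatch genes, 2 of 5 end joining genes and 2 of 7 sensing genes. RAD50 was the gene that rose, by 0.51 ± 0.12 (adjusted p = 0.00662, limma).

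Among the helicases and the nuclease, BLM and EXO1 fell and WRN, at -0.06 ± 0.12, did not pass. BLM was at 7.91, 7.65 and 8.44 at 24 h and 6.20, 4.84 and 6.26 at 48 h in ethanol, a fall of 2.23 ± 0.32 (4.69-fold; adjusted p = 3e-04, limma). EXO1 was at 8.33, 8.33 and 9.55 and then at 7.32, 6.36 and 7.65, a fall of 1.62 ± 0.34 (adjusted p = 0.00371, limma). Neither gene overlapped between the times, and replicate 2 was lowest at 48 h in both.

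In homologous recombination, BARD1 went from 10.37, 10.34 and 10.47 to 9.45, 8.69 and 8.98 and fell by 1.36 ± 0.17 (adjusted p = 0.00012, limma). RAD54L went from 8.14, 7.94 and 8.52 to 7.24, 6.33 and 7.40 and fell by 1.21 ± 0.23. XRCC3 went from 5.22, 5.29 and 5.79 to 4.60, 4.31 and 4.90 and fell by 0.83 ± 0.22. These genes had no overlap between the times. RAD54B (8.20, 7.90 and 8.42, then 7.20, 6.89 and 8.04) and RAD51AP1 (10.38, 10.71 and 11.05, then 10.43, 9.47 and 10.05) fell by 0.79 ± 0.26 and 0.73 ± 0.24, and their arrays overlapped. BRCA1 differed by -0.35 ± 0.19, PALB2 by -0.04 ± 0.10, RAD51C by -0.07 ± 0.13 and XRCC2 by -0.08 ± 0.17. With the mean of its probe sets BRCA1 was called lower, at -0.62 ± 0.20 (adjusted p = 0.0375, limma).

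Among Fanconi genes, FANCB went from 5.11, 4.83 and 6.13 to 3.02, 3.08 and 4.12, a fall of 1.95 ± 0.39. BRIP1 went from 8.97, 8.93 and 9.27 to 8.09, 6.34 and 7.93, a fall of 1.60 ± 0.32. FANCI went from 10.03, 9.93 and 9.81 to 9.09, 7.85 and 9.24, a fall of 1.20 ± 0.25. In each, all 48 h arrays were below all 24 h arrays. The same held for the next pair. FANCG (7.59, 7.74 and 7.89, then 7.21, 6.13 and 7.24) and FANCM (6.25, 6.49 and 6.89, then 5.82, 6.11 and 5.22) fell by 0.88 ± 0.23 and 0.82 ± 0.24. FANCC, FANCE and FANCF, at 0.02 to 0.21, and FANCL, at -0.20, did not pass.

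In the other roles, both Ku genes fell: XRCC6 went from 13.21, 13.05 and 13.20 to 12.47, 12.25 and 12.49 (-0.75 ± 0.11), and XRCC5 from 13.11, 13.01 and 13.03 to 12.54, 12.41 and 12.43 (-0.58 ± 0.09). MSH6 went from 11.94, 11.81 and 11.79 to 11.66, 11.20 and 11.35 (-0.45 ± 0.11). CHEK1 went from 10.00, 9.91 and 9.95 to 9.42, 9.05 and 9.52 (-0.63 ± 0.16), and TOPBP1 from 10.89, 11.02 and 10.83 to 10.66, 10.40 and 10.13 (-0.52 ± 0.12). All 5 passed and none overlapped between the times. PRKDC, at -0.33 ± 0.16, and XRCC4, at -0.47 ± 0.22, did not pass.

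Without both arrays of ethanol replicate 3, 16 of the 18 passed, against 19.0% of all genes: FANCM, at -0.40 (adjusted p = 0.255, limma), and RAD51AP1, at -0.59 (adjusted p = 0.165, limma), did not. Leaving out 1 array left 14 to 18, and RAD51AP1, RAD54B, FANCM, XRCC3, CHEK1 and MSH6 each lost their call without at least 1 of the 6 arrays, ethanol replicate 2 at 48 h for all of them but FANCM, which lost it without either array of replicate 3. In a fit of the 6 ethanol arrays alone none passed (19 at an unadjusted p under 0.05), and with the replicate block there, an alternative chosen after seeing the data, 5 did. Shares of all genes are not given for these fits or those without 1 array, so their counts are descriptions only. The proliferation list had 19 of 20 genes called lower over the same time, with a median of -1.10, and its part in the result was not tested.

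**Figure D3:**
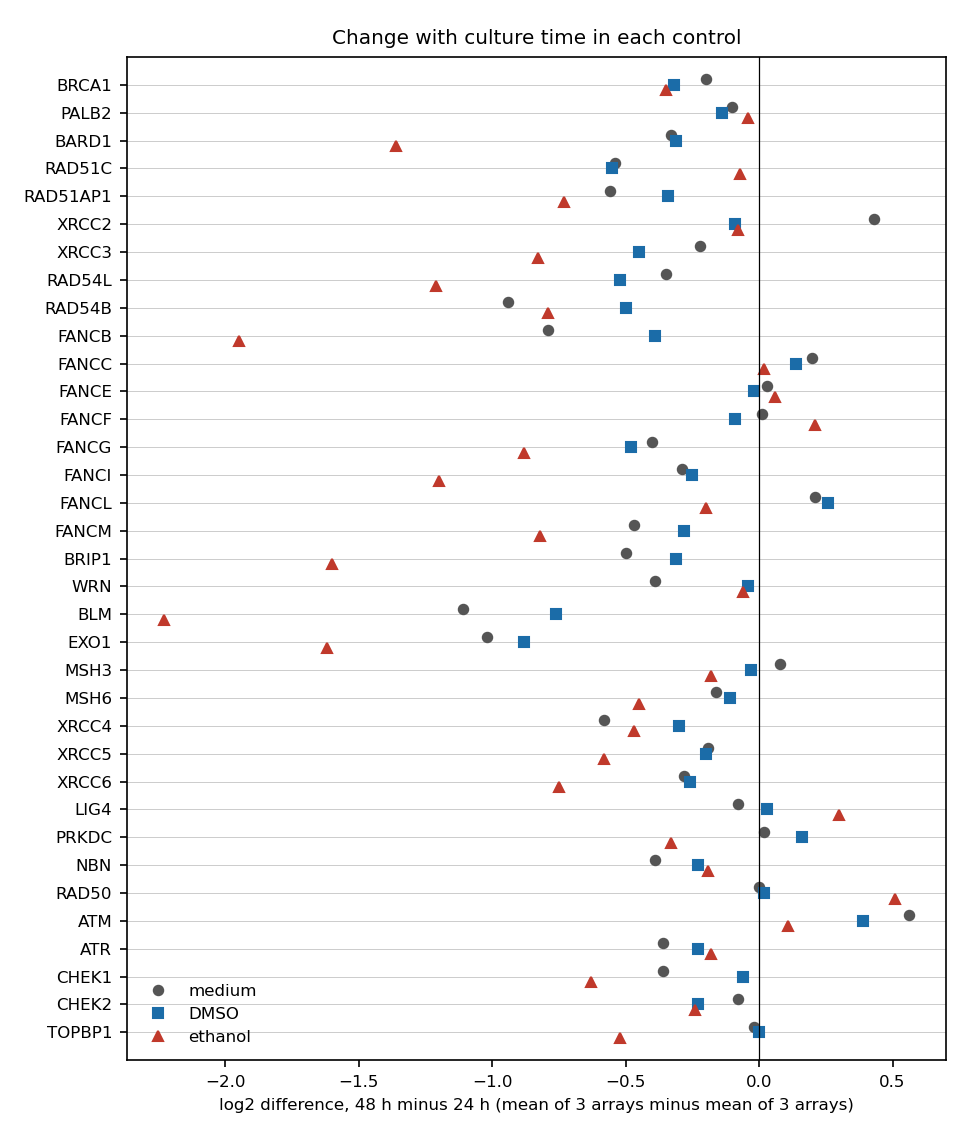
The log2 difference of 48 h minus 24 h (horizontal axis; mean of 3 arrays minus mean of 3 arrays) for each of the 35 measured members in medium (circles), DMSO (squares) and ethanol (triangles). In ethanol 29 of 35 lie below 0, in DMSO 28 and in medium 27, and the triangles of BLM, FANCB, EXO1, BRIP1 and BARD1 lie farthest left.

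In medium and in DMSO the members leaned the same way with time, by less. The median difference was -0.28 in medium with 27 of 35 below 0, and -0.23 in DMSO with 28 of 35. No member passed in the fit of all 18 arrays without pairing (limma), where none of the 10832 genes did. An unadjusted p under 0.05 was found for 12 members in medium and 6 in DMSO, against 1205 and 1105 of all genes. The arrays did not overlap for 17 members that were lower in medium and 14 in DMSO, against 14.4% and 12.3% of all genes. No member was higher without overlap, against 12.3% of all genes in medium and 10.5% in DMSO.

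Same-numbered arrays of these groups deviated together, with correlations across genes of 0.526 to 0.602 in medium and 0.596 to 0.603 in DMSO, so the pairing was used as a block. In a blocked fit of the 12 medium and DMSO arrays, 19 members passed in medium, 18 lower and 1 higher, against 29.8% of all genes and 17.3% lower. In DMSO 15 passed, 14 lower and 1 higher, against 28.5% of all genes and 15.0% lower. The blocked fit of all 18 arrays called 2 members in medium, BLM and RAD51C, against 4.04% of all genes, and 1 in DMSO, RAD51C, against 2.37%.

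In the fit of 12 arrays, 12 members fell in both: ATR, BARD1, BLM, BRIP1, EXO1, FANCG, FANCI, RAD51AP1, RAD51C, XRCC4, XRCC5 and XRCC6. Of these, 9 were among the 17 that fell in ethanol. The shares of all genes lower in both, or in each control, were not counted, so these overlaps are descriptions only. BLM went from 7.63, 7.78 and 7.92 to 6.36, 6.65 and 6.97 in medium (-1.11 ± 0.11 blocked; adjusted p = 0.000265, limma) and from 7.56, 7.94 and 7.82 to 6.78, 6.89 and 7.37 in DMSO (-0.76 ± 0.11). EXO1 fell by 1.02 ± 0.11 in medium and 0.88 ± 0.11 in DMSO. The fall of both genes was in every pair.

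RAD51C showed another order on its chosen probe set. It went from 9.29, 9.62 and 9.52 to 8.72, 9.03 and 9.06 in medium and from 9.37, 9.65 and 9.70 to 8.95, 8.95 and 9.17 in DMSO, falls of 0.54 ± 0.07 and 0.55 ± 0.07. In ethanol it was at 9.34, 9.35 and 9.47 and then 9.43, 9.29 and 9.24, a difference of -0.07 ± 0.13 (adjusted p = 0.757, limma). The 24 h and 48 h arrays overlapped in ethanol and not in medium or DMSO. The difference in its time change between ethanol and medium, 0.48 ± 0.18, did not pass (adjusted p = 0.225, limma). The other RAD51C probe set that passed the filter fell by 0.46 with time in medium. It differed between ethanol and medium by 0.03 at 24 h and 0.04 at 48 h, so this order was not on every probe set. The genes that rose in the blocked fit were ATM in medium, by 0.56 ± 0.13 (adjusted p = 0.0123, limma), and FANCL in DMSO, by 0.26 ± 0.07 (adjusted p = 0.0299, limma). The ATM probe set is of a type that may bind related transcripts. The other ATM probe sets that passed the filter rose by 0.44 and 0.44 in medium.

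Over the 9 same-numbered pairs of 24 h and 48 h arrays, 14 of the 35 members were lower at 48 h in all 9, against 14.0% of all genes. None of the members was higher in all 9, and the share of all genes higher in all 9 was not counted. The 14 were ATR, BARD1, BLM, BRIP1, EXO1, FANCB, FANCG, FANCI, MSH6, RAD54B, RAD54L, XRCC4, XRCC5 and XRCC6, with members of every role among them.

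**Figure D4:**
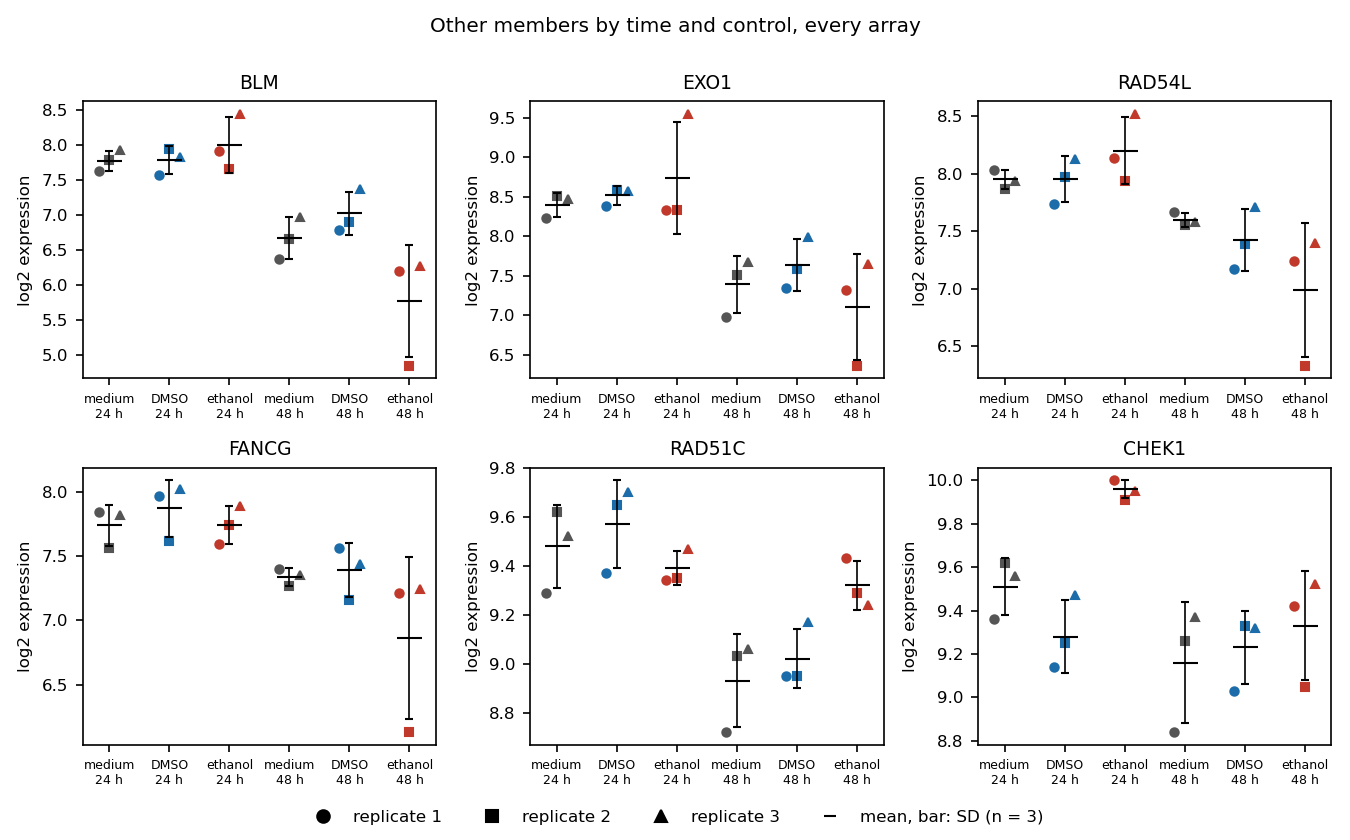
Log2 expression (vertical axis) of BLM, EXO1, RAD54L, FANCG, RAD51C and CHEK1 on each of the 18 arrays in 6 groups, with replicates as symbols and bars for mean and SD (n = 3). The means of BLM, EXO1, RAD54L and FANCG are lower at 48 h in each control, RAD51C has means of 9.39 and 9.32 in ethanol, and CHEK1 has its highest mean in ethanol at 24 h.

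The difference between the time changes of ethanol and medium was tested directly, and BARD1 alone of the 35 members passed. Its fall from 24 h to 48 h was larger in ethanol by 1.03 ± 0.24 (adjusted p = 0.0481, limma), against 1.59% of all genes called, 1.40% higher and 0.185% lower. In medium BARD1 went from 10.34, 10.71 and 10.37 to 10.02, 10.31 and 10.10, and in DMSO from 10.44, 10.79 and 10.52 to 10.13, 10.29 and 10.40. The 3 ethanol arrays of 48 h, at 9.45, 8.69 and 8.98, were the lowest of all 18. The call was lost without both arrays of ethanol replicate 3 (-0.96; adjusted p = 0.0968, limma), and it held in 2 of 12 fits that left out 1 array, without medium replicate 2 at 24 h (-1.15) and without ethanol replicate 1 at 48 h (-1.24). At an unadjusted p under 0.05 there were 10 members and 1497 of all genes. RAD50 at 0.52 ± 0.17, TOPBP1 at -0.50 ± 0.16, XRCC6 at -0.47 ± 0.16 and XRCC5 at -0.40 ± 0.13 came next in order, with adjusted p of 0.152 to 0.17 (limma). For DMSO against medium no member passed this test, and none had an unadjusted p under 0.05.

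The comparison of DMSO with medium asks whether this vehicle changes the repair genes, and no member passed at 24 h or 48 h (limma). None of the 10832 genes was called at either time. At 24 h no member had an unadjusted p under 0.05, against 204 of all genes. The 2 smallest p-values were those of PRKDC, at 11.89, 11.66 and 11.81 in medium and 11.67, 11.51 and 11.42 in DMSO (-0.25 ± 0.16), and LIG4, at 7.10, 7.39 and 7.44 in medium and 6.90, 7.13 and 7.23 in DMSO (-0.23 ± 0.14). Both pairs of groups overlapped, and for no member did the groups at 24 h not overlap, against 5.83% of all genes lower and 3.58% higher. The 95% intervals were -0.58 to 0.08 for PRKDC and -0.53 to 0.08 for LIG4.

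At 48 h 2 members and 53 of all 10832 genes had an unadjusted p under 0.05. XRCC2 was at 6.57, 6.71 and 6.08 in medium and 5.78, 5.89 and 5.61 in DMSO, and its difference of -0.70 ± 0.17 had the smallest p of all genes and an adjusted p of 1 (limma). WRN was at 6.52, 6.89 and 6.89 in medium and 7.19, 7.03 and 7.18 in DMSO, a difference of 0.37 ± 0.12 with an adjusted p of 1 (limma). In both genes these groups did not overlap, and the mean of medium at 48 h was the one farthest from the other 5 groups. XRCC2 had a mean of 6.46 there against 5.76 to 6.05 elsewhere, and WRN 6.77 against 7.08 to 7.18. No overlap at 48 h was found for 1 lower and 1 higher member, against 1.78% and 1.86% of all genes. The XRCC2 probe set, like that of ATM, may bind related transcripts.

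With the replicate block in the fit of 12 arrays, no member passed at 24 h or 48 h (limma). There 4 and 4 members had an unadjusted p under 0.05, against 1231 and 605 of all genes. The members with those p-values were RAD51AP1 (-0.29 ± 0.07), LIG4, CHEK1 and PRKDC at 24 h, and XRCC2, WRN, BLM (0.35 ± 0.11) and EXO1 (0.25 ± 0.11) at 48 h. Over all genes 0.102% were called at 24 h, 0.0185% higher and 0.0831% lower, and none at 48 h. The adjusted p of XRCC2 and WRN was at least 0.771 under every alternative tried.

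**Figure D5:**
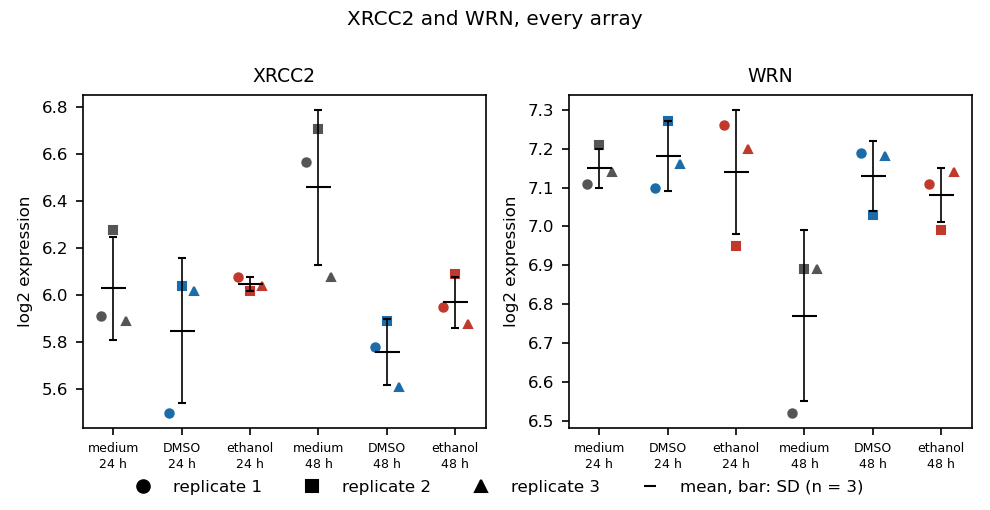
Log2 expression (vertical axis) of XRCC2 and WRN on each of the 18 arrays in 6 groups, with replicates as symbols and bars for mean and SD (n = 3). The 3 arrays of medium at 48 h are the highest group for XRCC2, with a mean of 6.46, and the lowest for WRN, with a mean of 6.77.

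Other genes of the same pathways were counted from lists of genes that are no members. In ethanol against medium at 48 h, 1 of 21 further recombination genes was called, RMI2, the partner of BLM, at -0.76 ± 0.22, and the list's median was 0.11. Of 12 further Fanconi genes, CENPX, which binds FANCM, was called at -0.53 ± 0.14, with a median of -0.02. Of 13 further end joining genes, PARP1, the break sensor, was called at -0.34 ± 0.11, with a median of -0.01. The members' median was -0.29, and that of the further sensing and checkpoint genes was -0.28. Members and lists were chosen with earlier results of these data known, so these medians are descriptions only.

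Mismatch repair had 1 gene called in each direction of 5: PMS1 at 0.48 ± 0.12 and LIG1, the replicative ligase, at -0.92 ± 0.17, with a list median of 0.09. Sensing and checkpoint genes had 5 lower and 1 higher of 20, with a median of -0.28. They included CDC25A, the phosphatase that CHEK1 restrains, at -1.14 ± 0.23, the cohesin subunit SMC1A at -0.65 ± 0.13 and RAD17, which loads the checkpoint clamp, at 0.88 ± 0.20. Base and nucleotide excision repair had 5 higher and 3 lower of 29, with a median of 0.03. Among them GTF2H1, a subunit of the repair and transcription factor TFIIH, was at 0.83 ± 0.17, the uracil glycosylase UNG at -0.71 ± 0.17 and the gap-filling polymerase POLB at 0.37 ± 0.09.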

How the data were processed

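Total RNA of 18 HK-2 cultures was hybridized as biotinylated cRNA, per the labels' protocols. The authors deposited log2 expression values made with GCRMA, per the submitters' processing notes. GCRMA is a method that corrects background by probe GC content and makes the distributions of the arrays alike. Its version is not given in the sources used here, and the log2 scale was read from the values. No raw intensities were used here, so background correction could not be varied. Arrays have no read depth: their number sets the precision.

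The table held 54675 probe sets: 62 controls, 41091 with 1 gene, 1801 with several and 11721 with none. Symbols came from the RefSeq gene table for 41037 and from the platform table for 54. A probe set entered at a log2 value above 4 on at least 3 of 18 arrays (19730), and the highest mean over 18 arrays represented each of 10832 genes. Means of 6 groups were fitted in limma 3.58.1 (R 4.3.3) with 12 residual and 2.65 prior degrees of freedom. The 11 contrasts were each adjusted by Benjamini-Hochberg over all genes, two-sided, and called under 0.05. The labels call the replicates biological, so p-values refer to the spread between such cultures. Errors beside differences are SE, and n is 3 arrays per group. The script was tested on simulated data.

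The numbers pair the arrays where deviations from group means correlated above 0.1 in every pair. They did between DMSO and medium (0.608 to 0.731 at 24 h, 0.669 to 0.720 at 48 h), between the times of each control (0.526 to 0.602 in medium, 0.596 to 0.603 in DMSO, 0.319 to 0.680 in ethanol) and for ethanol at 24 h (0.225 to 0.480 with medium, 0.214 to 0.424 with DMSO). They did not for ethanol at 48 h (-0.083 to 0.345 with medium, -0.005 to 0.411 with DMSO). Alternatives were the replicate block, quantile normalization, median centring, no filter, the mean of a gene's probe sets, only the groups compared, both ethanol replicate 3 arrays left out, and each array left out.

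The members and gene lists were chosen with earlier results of these data known. Array values are given for members called in ethanol against medium at 48 h, in a time change or in a difference of time changes, and for the 2 members of smallest p in DMSO against medium at each time. Values of further members were added for context. Genes that are no members were named by the 3 smallest p-values of their list in ethanol against medium at 48 h, and markers by their lists.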

Additional observations from a re-analysis of the deposited data

Results flagged for a closer look

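BARD1 was singled out because its change between 24 h and 48 h differed between 2 controls by a test of the difference itself. The difference of log2 changes, ethanol minus medium, was -1.03 ± 0.24 (adjusted p = 0.0481, limma), from a change of -1.36 in ethanol and -0.33 in medium. All 3 same-numbered pairs fell in ethanol and in medium. Over 7 alternative settings and 12 fits without 1 array the difference ran from -1.24 to -0.85, with adjusted p from 0.00264 to 0.152.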

How the results depend on the processing

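No result changed direction under any alternative tried. For ethanol against medium at 48 h, 9 members passed, against 15.3% of all genes. With the replicate block in the fit of 18 arrays 17 did (2 higher, 15 lower), against 26.0%, although the numbers do not pair these arrays. A fit of only the groups compared gave 0, against 1.05%, and fits without 1 array gave 4 to 10. Median centring gave 11, against 16.0% of all genes, and quantile normalization 9, against 15.2%. Without the filter 7 passed, against 6.94%, and with the mean of a gene's probe sets 6, against 14.4%. For ethanol against DMSO at 24 h, the block on 18 arrays gave 2, against 3.26% of all genes, and no filter 1, against 0.364%. The block on the arrays of these groups alone called no member and no gene. At 48 h only the groups compared gave 0, against 1.61%. The block gave 15 there, against 29.0%, where the numbers again do not pair the arrays, and single arrays left out gave 5 to 11. For 48 h against 24 h, medium had 2 with the block on 18 arrays, 19 on 12 arrays and 13 on its own 6. The shares of all genes were 4.04%, 29.8% and 17.8%. DMSO had 1, 15 and 6, with 28.5% of all genes beside the 15. The last count of medium and of DMSO, and the 5 in ethanol, came from an alternative chosen after seeing the data. Ethanol had 0 in its own 6 arrays without the block, 18 with the block on 18 arrays and 14 to 18 without 1 array. For the difference of time changes between ethanol and medium, the block gave 3, single arrays left out 0 to 2, and 0 passed without both ethanol replicate 3 arrays, without the filter, with the mean of probe sets, or with only the groups compared. Shares of all genes are not given beside these counts, the ethanol counts over time or the 6 in DMSO, so all of them are descriptions only. The replicate block changed no other call of a count. Quantile normalization and median centring moved the median of all genes by 0.019 and -0.024 between ethanol and medium at 48 h. With 3 arrays per group, a member that did not pass may still differ, and its 95% interval bounds by how much; probe sets near a log2 value of 4, such as FANCB, may understate the size of a fall. Hybridization to related transcripts was not tested.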

Other observations

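Genes known as targets of p53, the transcription factor that damage kinases activate, were counted from a list of 16 tested genes. In ethanol against medium at 48 h, 3 rose and none fell, against 7.80% of all genes higher and 7.47% lower. The list's median was -0.11, with 9 of the 16 below 0. Activity of p53 was not tested. GADD45A, which binds PCNA and slows the cell cycle, rose by 1.65 ± 0.30 (adjusted p = 0.00256, limma), SESN2, a stress-induced inhibitor of mTORC1, by 1.34 ± 0.24 (adjusted p = 0.00265, limma), and TNFRSF10B, a death receptor, by 0.73 ± 0.15 (adjusted p = 0.00591, limma). At 24 h none of the 16 was called (limma; 1 at an unadjusted p under 0.05), and none was called in DMSO against medium at either time (limma; 0 and 0). These 3 genes were the ones of smallest p in the list, and the other 13 did not pass.

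The other repair lists differed in their calls over time in ethanol. Of 21 further recombination genes, 8 fell and 4 rose from 24 h to 48 h, of 12 further Fanconi genes 3 fell and 3 rose, and of 20 further sensing and checkpoint genes 12 fell and 1 rose. Of 5 further mismatch repair genes 2 fell and 1 rose, and of 13 further end joining genes 3 fell and none rose. Of 29 excision repair genes, 2 fell and 5 rose. Over all genes 11.3% were called lower and 11.7% higher in this comparison.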
